A study of Mus musculus with 9 samples.

Results

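The comparison described here set the TSPAN8-high fraction of ID4-EGFP+ spermatogonia against the whole ID4-EGFP+ population it was sorted from. It took in 6 of the 9 libraries analysed: 3 of TSPAN8-high cells and 3 of all ID4-EGFP+ cells, paired by the replicate number in their labels. All cells came from testes of mouse pups at postnatal day 6 of the LT-11B6 line, which carries an Id4-eGfp transgene on a C57BL/6 background. TSPAN8-high cells were those ID4-EGFP+ cells in the most strongly stained 1/3 after labelling with an antibody to TSPAN8. All ID4-EGFP+ cells were taken on EGFP alone, so this group holds the TSPAN8-high cells as well as the rest, and the differences below are between a part and its whole. The 3 TSPAN8-low libraries, from the weakest 1/3 of the stained cells, are given as values only. The labels call the replicates separate preparations and do not say whether each came from its own litter. Nor do they say whether same-numbered libraries of the groups share a litter or a sort day. The main test takes the replicate number as a block, so its p-values measure the spread of the differences within pairs, moderated across genes. Without the block they measure the spread between preparations.

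Undifferentiated spermatogonia are the testis population that holds the spermatogonial stem cells together with the progenitors they give rise to. Stem cells respond to GDNF, a growth factor from Sertoli cells that acts through the receptor pair of GFRA1 and RET, while progenitors come to respond to retinoic acid, which brings on differentiation and the receptor KIT. ID4 is an inhibitor of DNA binding whose reporter is brightest at the stem cell end of this range. TSPAN8 is a tetraspanin, a surface protein that crosses the membrane several times. EGFP from the transgene marks where the Id4 promoter is active and is not a measurement of stem cell function.

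Levels are given in FPKM, fragments scaled by transcript length and by the mapped fragments of the library, as deposited. Differences are log2 fold changes, TSPAN8-high minus all ID4-EGFP+, on the log2(FPKM + 1) scale, which understates changes of genes with low values. Between 10899 and 11155 table entries reached 1 FPKM in each of the 6 libraries. Absolute depth is unknown; estimated from the steps in low values, the 6 libraries had 0.915 to 1.05 times the depth of the first all ID4-EGFP+ library. Across genes, Pearson's r was 0.982 to 0.992 within a group and 0.975 to 0.990 between the groups. Small RNA genes summed to 109618 FPKM in all ID4-EGFP+ replicate 2, 32252 FPKM in TSPAN8-high replicate 3 and 1770 to 3449 FPKM in the other 4 libraries, and their values are uncertain. The germ cell genes Dazl (1148 to 1709 FPKM) and Ddx4 (395 to 652 FPKM) were high in all 6 libraries.

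Both genes of the sort were higher in the TSPAN8-high fraction. Tspan8 stood at 14.5, 14.2 and 16.8 FPKM in all ID4-EGFP+ replicates 1 to 3 and at 43.7, 29.6 and 28.8 FPKM in the TSPAN8-high libraries. The groups did not overlap, and the mean ratio was 2.24 (log2 fold change 1.09, SE 0.14, adjusted p = 7.77e-05 by limma with the replicate number as a block). Id4, the gene behind the reporter, stood at 30.6, 38.0 and 38.2 FPKM in all ID4-EGFP+ and at 71.1, 71.6 and 58.9 FPKM in TSPAN8-high. These values did not overlap either (ratio 1.89, log2 fold change 0.90, SE 0.12, adjusted p = 0.000138). In TSPAN8-low the means were 9.73 FPKM for Tspan8 and 26.2 FPKM for Id4, so for both genes the whole population stood between the fractions. An exact permutation test of each gene alone, two-sided over its 20 arrangements, returned p = 0.1, the lowest value that 3 against 3 libraries allow. An exact paired test over the 8 sign flips of the 3 pair differences, also two-sided, returned p = 0.25 for each gene, the lowest that 3 pairs allow.

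Many genes differed by small steps. Of 10930 genes tested, 946 (8.66%) passed at an adjusted p under 0.05, 469 (4.29%) higher and 477 (4.36%) lower in TSPAN8-high. By at least 2-fold 85 (0.778%) changed, 21 of them higher (0.192%) and 64 lower (0.586%). Without the block 14 genes rose (0.128%) and 38 fell (0.348%), and with all 9 libraries in one blocked fit 151 rose (1.38%) and 211 fell (1.93%). All 52 genes called without the block were called in both other fits. Of the 75 calls on the gene lists below, 10 were kept without the block: T and Plvap higher, and Lmo1, Crabp1, Tbx1, Kit, Dmrtb1, Lgr5, Cdk6 and Cd63 lower. Leaving out replicate 1 of both groups left 293 calls and leaving out replicate 2 gave 1452. Of the 946 blocked calls, 933 had the same sign in all 3 pairs, and for 653 of them the values of the groups did not overlap. Of the 469 rises 44, and of the 477 falls 43, were of genes that reached 1 FPKM in all 3 libraries of the higher group and in fewer than 3 of the lower. Such a gene was tested because of the group where it is high, so its direction is set in part by the filter on low values. It applied to 9 of the 75 calls on the lists, and those described below are T, Eomes, Aldh1a1 and Aldh1a3 among the rises and Tbx1, Lhx8, Dmrtb1 and Lgr5 among the falls. Over all tested genes the groups did not overlap in 6.87% with TSPAN8-high above and in 8.14% with it below.

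**Figure D1:**
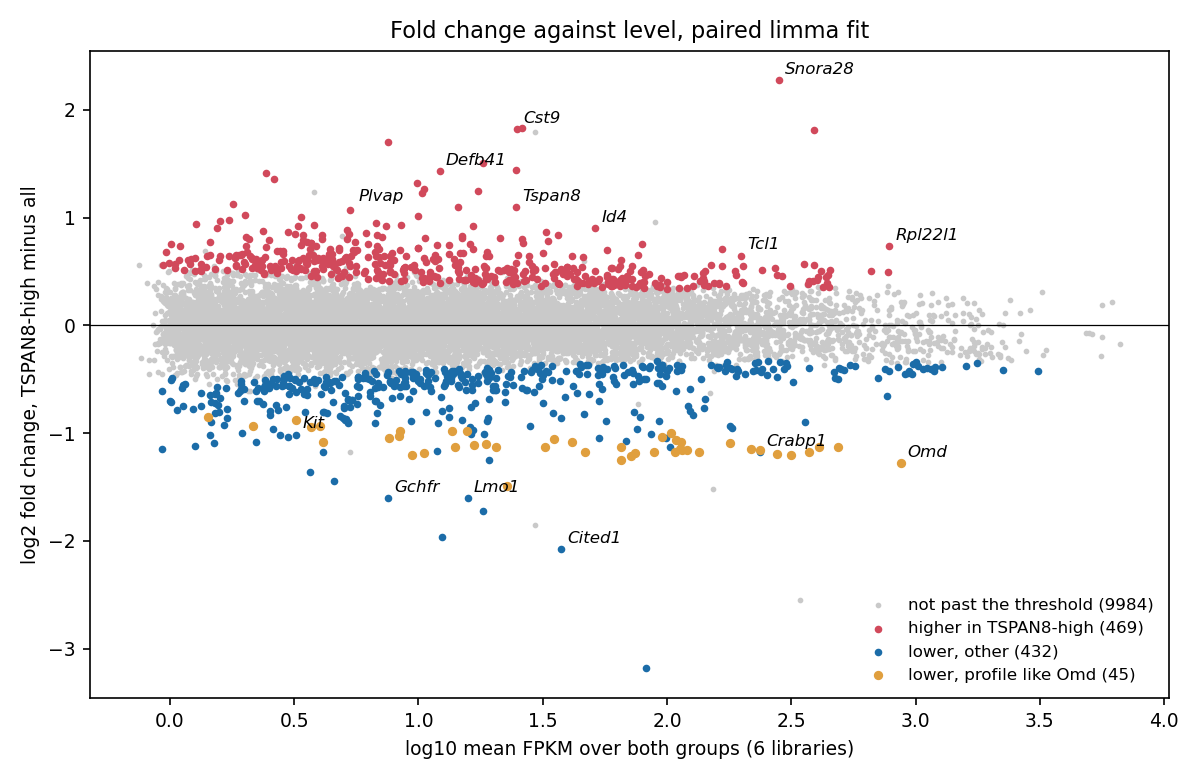
Each point is 1 of 10930 tested genes, with the log10 of its mean FPKM over the 6 libraries on the x axis and the log2 fold change, TSPAN8-high minus all ID4-EGFP+, on the y axis. Red genes were higher (469), blue and orange genes lower (477). The 45 orange genes were chosen for a level profile like that of Omd over these 6 libraries, so their place near -1 follows from the choice.

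Genes of GDNF signalling were higher in the TSPAN8-high fraction, in the receptor as well as among its responses. Gfra1, for the ligand-binding receptor part, stood at 9.87, 11.5 and 11.96 FPKM in all ID4-EGFP+ and at 19.2, 17.7 and 17.7 FPKM in TSPAN8-high. It rose by 0.67 (SE 0.12, adjusted p = 0.00263), with no overlap between the groups. Ret, for the signalling part, rose from 5.09, 6.05 and 5.94 FPKM to 8.07, 8.08 and 8.52 FPKM, a difference of 0.47 (SE 0.13, adjusted p = 0.0310). The related receptors went other ways. Gfra3 fell by 0.57 (adjusted p = 0.0114) although its groups overlapped, and Gfra4 was at 16.2 ± 1.64 and 17.2 ± 1.74 FPKM (SD, n = 3 each; adjusted p = 0.713). Without replicate 1 the adjusted p was 0.0562 for Gfra1, 0.255 for Ret and 0.115 for Gfra3.

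Of 11 genes on the list of those known to respond to GDNF in these cells, 10 were tested, 6 rose and 0 fell. Their median was 0.50, against -0.01 over all tested genes, of which 4.29% rose. This and the other lists were chosen with earlier results of these data known, so counts by list are a description and not independent support. Tcl1, for a coactivator of AKT, was the most abundant, at 160, 123 and 180 FPKM in all ID4-EGFP+ and 270, 199 and 255 FPKM in TSPAN8-high. It rose by 0.65 (SE 0.10, adjusted p = 0.000683) and its groups did not overlap. T, for the transcription factor brachyury, went from 0.467, 1.10 and 0.754 FPKM to 2.56, 2.07 and 2.24 FPKM (0.90, SE 0.16, adjusted p = 0.00218, 0.0486 without the block). It entered the test through the TSPAN8-high libraries, since only 1 library of all ID4-EGFP+ reached 1 FPKM, and the other 5 risers reached it in all 6 libraries. The transcription factor genes Egr2 (0.67), Etv5 (0.51) and Bcl6b (0.49) and the neurofilament gene Nefm (0.62) rose as well, with adjusted p of 0.00516 to 0.0234. Etv5 stood at 17.1, 16.8 and 22.5 FPKM and at 27.5, 25.2 and 28.6 FPKM, again without overlap. Lhx1 was at 0.44 (adjusted p = 0.0520), and Egr4 (-0.23) and Mycn (-0.29) had adjusted p of 0.25 and 0.210. Without replicate 1 the calls of Egr2 (0.0681), Etv5 (0.156), Bcl6b (0.240) and Nefm (0.0687) were lost.

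Other genes linked to stem cells followed. Of 6 tested, 4 rose and 0 fell, with a median of 0.52, where 4.29% of all tested genes rose. Plvap, for a protein of the diaphragms that span membrane openings, rose most, from 4.13, 5.16 and 6.33 FPKM to 12.03, 15.4 and 15.99 FPKM (1.32, SE 0.12, adjusted p = 6.10e-06). It passed in all 3 fits (adjusted p = 0.0384 without the block), and its TSPAN8-low mean was 3.30 FPKM. Nanos2, for an RNA-binding protein that holds back differentiation, rose from 8.27, 5.85 and 8.24 FPKM to 11.3, 10.6 and 11.6 FPKM (0.54, adjusted p = 0.0146). The transcription factor genes Foxc2 (0.49) and Eomes (0.57) rose with adjusted p of 0.0280 and 0.0297, from means of 4.50 and 0.881 FPKM in all ID4-EGFP+. Eomes reached 1 FPKM in 1 library of all ID4-EGFP+ and in all 3 of TSPAN8-high, so it too was tested through the group where it is high. Cxcr4, for the receptor of the chemokine CXCL12, was at 0.37 (adjusted p = 0.122). Without replicate 2 the adjusted p was 0.0674 for Nanos2, 0.0616 for Foxc2 and 0.173 for Eomes, and without replicate 1 Foxc2 (0.238) and Eomes (0.115) were lost.

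**Figure D2:**
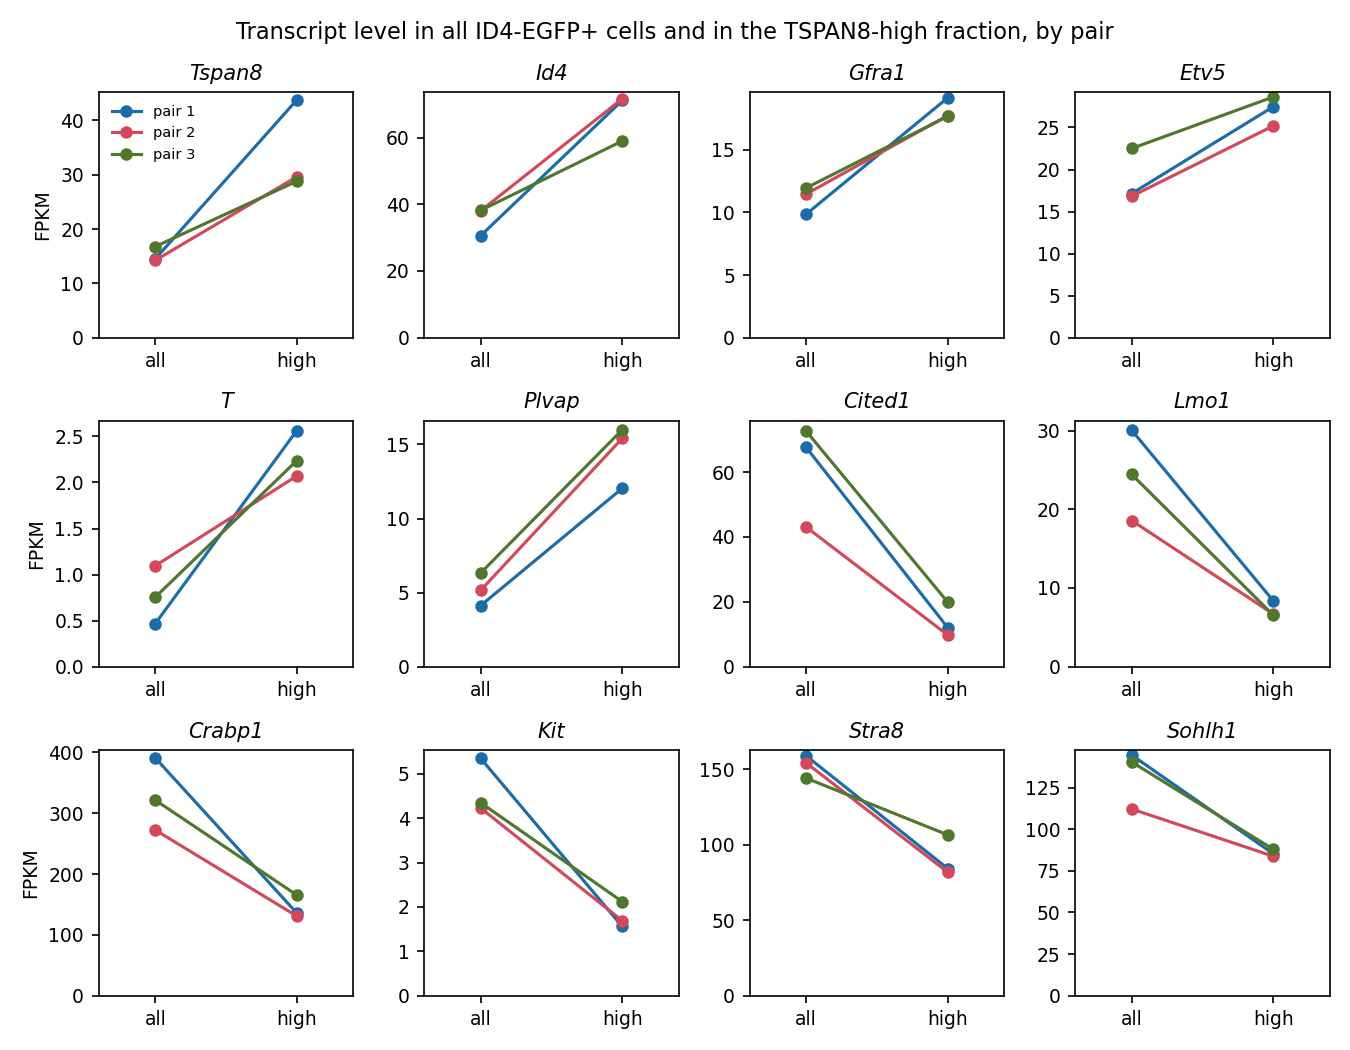
FPKM of 12 genes in all ID4-EGFP+ cells (all) and the TSPAN8-high fraction (high), 1 line per pair of libraries and a y axis from 0 in each panel. In each of the 12 genes the 3 lines run the same way, up for the 6 genes from Tspan8 to Plvap and down for the 6 genes from Cited1 to Sohlh1, and the groups do not overlap.

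Feedback inhibitors that growth factor signalling induces were partly higher. Of 8 tested, 2 rose and 7 had an estimate above 0. Over all 10930 tested genes, 4.29% rose and 5341 had an estimate above 0. Dusp6, for a phosphatase that acts on the ERK kinases, rose from 42.8, 35.8 and 52.1 FPKM to 75.3, 68.2 and 68.9 FPKM (0.70, SE 0.12, adjusted p = 0.00116). Its groups did not overlap, and it did not pass without the block (adjusted p = 0.0977). Spry4 rose by 0.43 (adjusted p = 0.0477), a call lost without any 1 of the 3 pairs (adjusted p of 0.112 to 0.156). Spry1 was at 0.35 (adjusted p = 0.0900). None of 7 tested genes for growth factor receptors and ephrins passed, among them Epha2 at 0.868 and 1.18 FPKM on average (adjusted p = 0.392).

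Among genes shared by the whole undifferentiated population, 1 rose and 1 fell of 17 tested, with a median of 0.16. Over all tested genes, 4.29% rose and 4.36% fell. Dppa4 rose by 0.36 and Uchl1, for a ubiquitin hydrolase common in spermatogonia, fell by 0.48 (adjusted p of 0.0367 and 0.00746). Uchl1 went from 841, 705 and 921 FPKM to 537, 569 and 652 FPKM, with no overlap. Zbtb16, for the transcription factor PLZF, was at 0.25 (adjusted p = 0.293), and Sall4 was at 0.22 (adjusted p = 0.353). Both the Uchl1 and the Dppa4 call were lost without replicate 1 (adjusted p of 0.200 and 0.331).

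Genes on the progenitor list, chosen with earlier results of these data known, were lower. Each of the 10 tested had an estimate under 0, 7 fell, 0 rose and the median was -0.69. Of all 10930 tested genes, 4.36% fell and 5341 had an estimate above 0. Lmo1, for a transcriptional regulator without DNA binding of its own, stood at 30.04, 18.6 and 24.4 FPKM in all ID4-EGFP+ and at 8.39, 6.70 and 6.56 FPKM in TSPAN8-high. It fell by 1.61 (SE 0.12, adjusted p = 1.56e-06). Crabp1, for a protein that binds retinoic acid in the cytoplasm, was far more abundant, at 391, 272 and 321 FPKM and at 136, 131 and 165 FPKM. Its fall was -1.17 (SE 0.11, adjusted p = 7.25e-06). Both genes kept the groups apart, and both passed without the block (adjusted p = 0.0384). The transcription factor genes Tbx1 (1.65 ± 0.558 to 0.186 ± 0.0875 FPKM, SD, n = 3 each) and Lhx8 fell by 1.14 and 1.12 from low levels. No TSPAN8-high library reached 1 FPKM in either, so both were tested through the all ID4-EGFP+ libraries alone, and the same held for Dmrtb1 on the next list. Sohlh1, for a factor needed for differentiation, fell from 145, 112 and 140 FPKM to 85.3, 83.8 and 88.0 FPKM (-0.61, SE 0.11, adjusted p = 0.00161), and Neurog3 fell by 0.76 (adjusted p = 0.00330). Sohlh2, the partner of Sohlh1, fell by 0.42 (adjusted p = 0.0236). Sox3 (-0.53), Rarg (-0.46) and Upp1 (-0.08) did not pass. Without replicate 1 the adjusted p was 0.0511 for Sohlh1, 0.0556 for Neurog3 and 0.358 for Sohlh2.

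The differentiating list moved the same way. Of 9 tested, 5 fell, 0 rose, and the median was -0.39, where 4.36% of all tested genes fell. Kit, for the receptor of stem cell factor, stood at 5.35, 4.23 and 4.35 FPKM and at 1.56, 1.69 and 2.12 FPKM (-1.01, SE 0.15, adjusted p = 0.000326, 0.0384 without the block). Stra8, a gene that retinoic acid induces on the way to meiosis, stood at 159, 154 and 144 FPKM and at 84.3, 81.9 and 107 FPKM (-0.75, SE 0.11, adjusted p = 0.000528). The groups were apart in both, and in TSPAN8-low the means were 6.35 and 187 FPKM. Dmrtb1, a transcription factor gene of the switch from mitosis to meiosis, fell by 0.90, the DNA methyltransferase gene Dnmt3b by 0.49 and the homeobox gene Rhox10 by 0.39 (adjusted p of 0.00110 to 0.0265). Without replicate 1 the adjusted p was 0.305 for Dnmt3b and 0.183 for Rhox10. Of 14 meiosis genes Syce3, for a part of the synaptonemal complex, fell by 0.45 (adjusted p = 0.0118, 0.222 without replicate 1), and 0 rose.

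**Figure D3:**
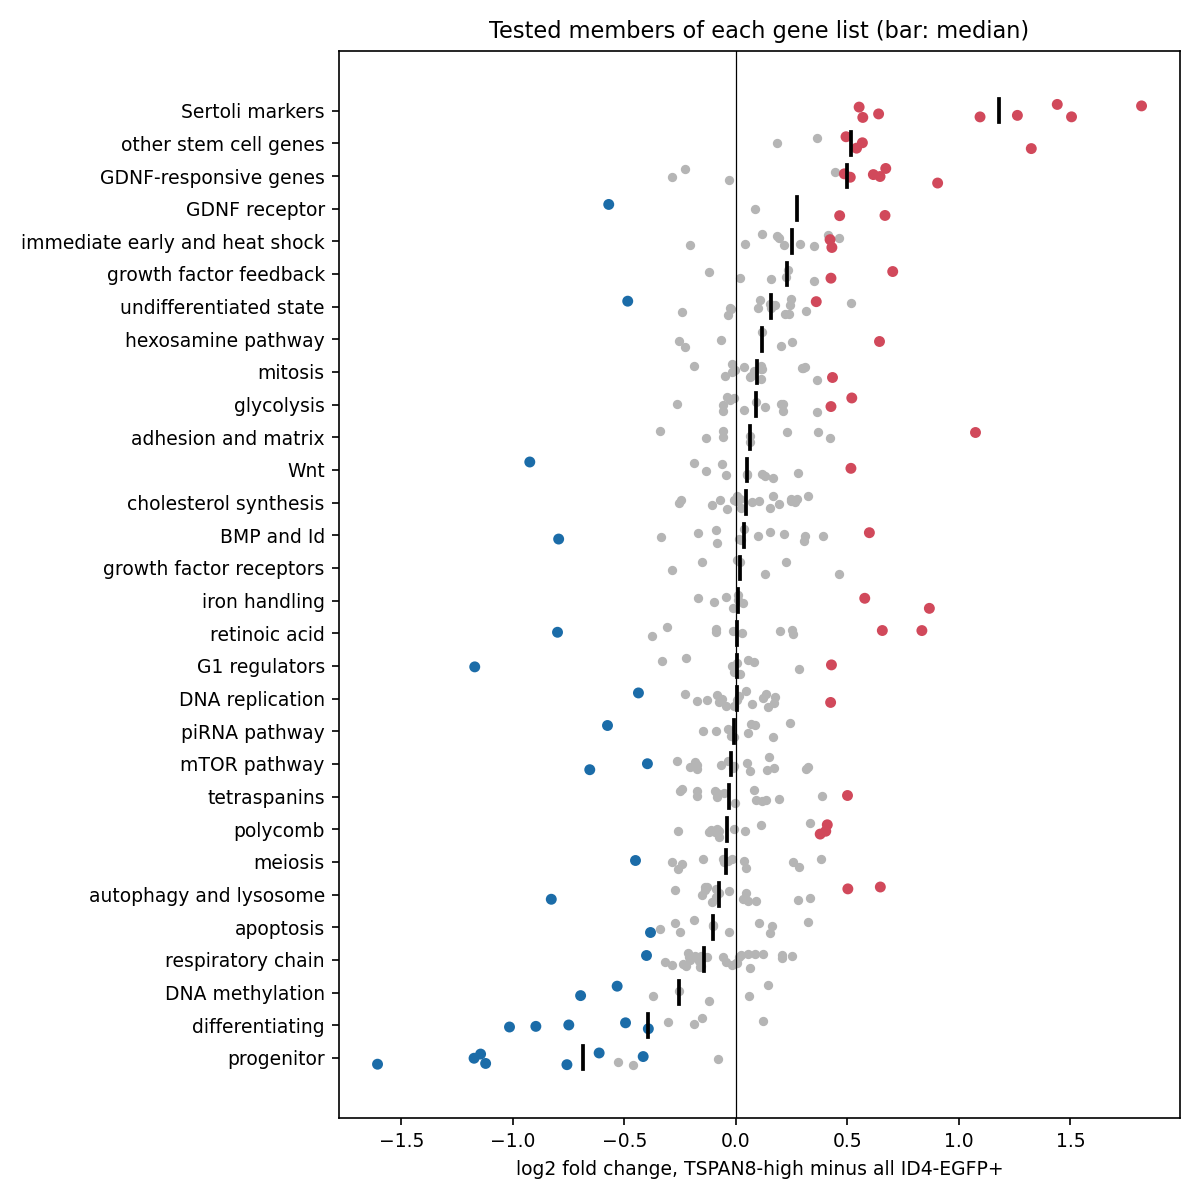
Log2 fold change, TSPAN8-high minus all ID4-EGFP+, of the tested members of each list with at least 4 of them; coloured points passed the test (red higher, blue lower), grey points did not, and the bar is the median. Medians lie lowest for progenitor genes (-0.69) and differentiating genes (-0.39) and highest for Sertoli markers (1.18), other stem cell genes (0.52) and genes that respond to GDNF (0.50).

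Outside the lists, Cited1, for a transcriptional coregulator without DNA binding of its own, had a large fall. It stood at 67.6, 43.0 and 72.6 FPKM in all ID4-EGFP+ and at 12.1, 9.77 and 19.9 FPKM in TSPAN8-high (-2.08, SE 0.12, adjusted p = 9.41e-08). The mean of TSPAN8-low was 99.8 FPKM, above all 3 libraries of the whole population. Gchfr, for a regulator of tetrahydrobiopterin synthesis, fell by 1.61, from 12.8, 8.98 and 13.6 FPKM to 3.34, 1.92 and 4.61 FPKM. Gal, for the neuropeptide galanin, fell by 1.44, Ly6k, for a surface protein held by a lipid anchor, by 1.36 and Lrrn4cl by 1.72. All 5 passed in the 3 fits. They were named by a rule that took only calls whose groups did not overlap, so their lack of overlap follows from it. Of the 38 genes that fell in all 3 fits, 21 were outside the profile described below; they also included Cdk6, Vegfb, Dpysl3, Galnt12, Ndrg4, Dlk1 and Lgr5. Vegfb, for a growth factor of the VEGF family, went from 3.88, 2.68 and 3.595 FPKM to 0.970, 0.951 and 1.25 FPKM (-1.08), and 1 of its TSPAN8-high libraries reached 1 FPKM.

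Cell cycle genes showed 1 large difference among otherwise similar levels. Cdk6, for a kinase that drives cells out of G1, stood at 7.21, 5.32 and 5.73 FPKM and at 1.503, 2.39 and 2.60 FPKM (-1.17, SE 0.16, adjusted p = 0.000240, 0.0404 without the block). Cdkn1c, for an inhibitor of such kinases, rose by 0.43 (adjusted p = 0.0432, lost without replicate 1 or 2 at 0.294 and 0.155). Of 18 mitosis genes Kif11 rose (0.43) and 0 fell, and of 19 replication genes Pola1 rose (0.42) and Gins2 fell (-0.44). Over all tested genes, 4.29% rose and 4.36% fell. Mki67, the usual marker of cycling cells, was at 9.33 ± 0.579 and 11.8 ± 0.893 FPKM (SD, n = 3 each; 0.31, adjusted p = 0.126). The calls of Kif11 (0.396), Pola1 (0.216) and Gins2 (0.116) were lost without replicate 1.

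Genes of retinoic acid, Wnt and BMP signalling did not move as groups. Among 12 retinoic acid genes, the synthesis enzyme genes Aldh1a1 (0.83) and Aldh1a3 (0.66) rose. Aldh1a1 overlapped between the groups, at 0.347, 2.42 and 3.75 FPKM and at 1.33, 5.56 and 7.12 FPKM, while each pair rose. Of 12 Wnt genes, the secreted inhibitor gene Sfrp1 rose by 0.52 and Lgr5, for an R-spondin receptor, fell by 0.92 (adjusted p of 0.0279 and 0.000677). Among 15 BMP and Id genes, 2 relatives of Id4 parted ways: Id3 rose by 0.60 and Id1 fell by 0.79 (adjusted p of 0.00499 and 0.0157). Id1 went from 3.36, 1.95 and 5.35 FPKM to 1.63, 1.58 and 1.31 FPKM, and its call was lost without replicate 1 (0.0582) or 3 (0.0964). Aldh1a3 was lost without replicate 2 (0.0918), and Sfrp1 without replicate 1 (0.185).

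Metabolic and housekeeping lists held a few calls each or none, where 8.66% of all tested genes passed. On lists this short, such counts are a description. Of 9 genes of iron handling, Trf, for transferrin, rose by 0.87 and Slc40a1, for the iron exporter ferroportin, by 0.58 (0.0575 without replicate 1). Trf stood at 15.3, 27.0 and 25.8 FPKM and at 28.2, 46.8 and 52.1 FPKM, with no overlap (adjusted p = 8.65e-05, 0.224 without the block). The autophagy receptor gene Optn rose by 0.65, and Gfpt2, for the first enzyme of the hexosamine pathway, by 0.64. Cd63, for a tetraspanin of lysosomes and exosomes, fell by 0.83, from 170, 148 and 170 FPKM to 82.6, 92.8 and 98.7 FPKM (adjusted p = 9.37e-05, 0.0486 without the block). TSPAN8-low had a mean of 233 FPKM, so Cd63 ran opposite to Tspan8 over the groups. Of the 16 tetraspanin genes tested as a list, Cd82 rose by 0.50 (adjusted p = 0.0418, lost without replicate 1 or 2) and 0 fell.

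In glycolysis, 2 of 15 genes rose (Ldha 0.43, Pfkp 0.52), and in the respiratory chain 1 of 30 fell (Ndufa2, -0.40). Of all tested genes, 4.29% rose and 4.36% fell. None of 20 cholesterol synthesis genes passed at an adjusted p under 0.05. Of 14 polycomb genes Pcgf6, Mtf2 and Ezh2, for the methyltransferase of histone H3, rose by 0.40, 0.38 and 0.41. In the mTOR pathway Akt1 fell by 0.66 and Eif4ebp1 by 0.40 of 18 tested, and among 7 genes of DNA methylation and demethylation Gadd45b and Gadd45g fell by 0.70 and 0.53. Each of these calls except Gadd45b was lost without replicate 1, and none passed without the block. Of 12 immediate early and heat shock genes, Dusp1 and Ier2 rose by 0.42 and 0.43, and 11 had an estimate above 0. An estimate above 0 was found for 5341 of all 10930 tested genes. The Dusp1 and Ier2 calls were lost without replicate 1 (0.167 and 0.0833).

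Beyond the lists, the largest rise with no overlap was in Snora28, a small nucleolar RNA, at 2.28, though its FPKM is uncertain. The whole population held 108, 140 and 52.3 FPKM of Snora28, against 381, 600 and 405 FPKM for TSPAN8-high. TSPAN8-low lay between them in each replicate (211, 383 and 143 FPKM). Both fractions thus exceeded the population they were sorted from, so a rise over it was not particular to TSPAN8-high. The beta-defensin genes Defb41 and Defb20, for small secreted antimicrobial peptides, rose by 1.43 and 1.41, and the Defb41 call was lost in a robust fit with no trend (adjusted p = 0.129). Defb20 stood at 0.189, 1.84 and 0.840 FPKM and at 3.96, 4.09 and 3.65 FPKM, so 1 library of all ID4-EGFP+ reached the 1 FPKM of the filter and the gene was tested through TSPAN8-high; Snap25 reached it in 2 of those libraries. Snap25, for a protein of vesicle fusion (1.02), and Fmn2, for an actin nucleator (1.01), followed. So did the proteoglycan gene Gpc3 (0.94) and Nid1, for a basement membrane protein (0.92), with adjusted p of 0.000313 to 0.00194 among them. These genes were named by a rule that took only calls whose groups did not overlap, so their lack of overlap follows from it. Pqlc1 went from 11.6, 9.94 and 11.9 FPKM to 23.3, 19.7 and 22.9 FPKM (0.92, adjusted p = 7.58e-05) and passed in all 3 fits. Slxl1, which rose by 1.01, belongs to a multicopy family on the X chromosome whose reads can be split. Among genes with a mean of at least 100 FPKM, Rpl22l1 (0.74), Ppp1cb (0.71) and Rps27 (0.56) rose besides Tcl1 and Snora28. Rpl22l1 and Ppp1cb did not pass without replicate 1 (adjusted p of 0.0629 and 0.0523). Of these genes only Snora28 passed without the block, where Rps27 had an adjusted p of 0.353. In the fit over 9 libraries Rps27 (adjusted p = 0.471) and Tcl1 (adjusted p = 0.128) did not pass.

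Markers of other testis cells rose beside the stem cell genes. Among 24 Sertoli cell markers with a row, 8 passed the filter on low values, 7 of them in all 6 libraries and Vim in 4, and these 8 rose. Over all tested genes, 4.29% rose. Without the block 0 of the 8 passed, and in the fit over 9 libraries 5 rose. The libraries were sorted on EGFP, a gate meant to take germ cells with the reporter. Cst9, for a secreted cystatin, stood at 3.24, 10.8 and 21.8 FPKM in all ID4-EGFP+ and at 24.4, 34.3 and 54.9 FPKM in TSPAN8-high (1.82, adjusted p = 7.25e-06). Its level rose in each pair, the lowest TSPAN8-high library was close to the highest of all ID4-EGFP+, and without the block it did not pass (adjusted p = 0.165). The summed Sertoli markers stood at 25.2, 54.5 and 119 FPKM and at 102, 115 and 248 FPKM, against 16.1, 29.3 and 151 FPKM in TSPAN8-low. Clu, for the secreted chaperone clusterin, rose by 1.44 and Inha, for an inhibin subunit, by 1.26, calls that a robust fit with no trend did not make (adjusted p of 0.303 and 0.110). The defining Sertoli genes Sox9, Amh, Wt1, Gata4 and Gdnf stayed under 1 FPKM in all 6 libraries. In bulk samples a change in the number of such cells and a change in RNA per cell cannot be told apart, and the part of these markers in the other rises was not tested.

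Macrophage genes appeared in 2 of the 3 TSPAN8-high libraries, which had passed the same EGFP gate. C1qb, for a complement component, stood at 0.0530, 0 and 0 FPKM in all ID4-EGFP+ and at 0, 1.92 and 6.28 FPKM in TSPAN8-high. Tyrobp, for a signalling adaptor of myeloid cells, stood at 0.264, 3.41 and 7.04 FPKM in TSPAN8-high and Lyz2, for lysozyme, at 0, 0.989 and 7.96 FPKM. Apoe, for a lipid carrier that macrophages make in quantity, showed 1.22, 6.08 and 33.2 FPKM, against 1.17, 1.85 and 1.53 FPKM in all ID4-EGFP+. In each of these genes TSPAN8-high replicate 1 was like the whole population, replicate 2 higher and replicate 3 highest. Tmsb4x, for a small actin-binding protein, had the same order, at 9.49, 43.5 and 75.9 FPKM in TSPAN8-high against 4.33, 8.85 and 14.3 FPKM (1.83, adjusted p = 9.92e-06, or 0.0574 in a robust fit with no trend). The pan-leukocyte gene Ptprc reached at most 0.177 FPKM. Among 10 leukocyte markers with a row, 3 were tested and 2 rose, where 4.29% of all tested genes rose. Fcer1g rose by 0.77 and Cd68 by 0.47, calls not made without the block or over 9 libraries. The other tested marker, Cd14, did not pass, and its estimate was -0.275 to -0.0616 over the alternatives that tested it. The sum of all 10 stood at 31.5, 28.7 and 31.7 FPKM and at 43.3, 55.4 and 77.7 FPKM. Apoe and Tmsb4x were singled out after their values were seen. Whether macrophages were present, and the part of their RNA in the other rises, was not tested. With replicate 3 left out of both groups, 1011 genes passed. TSPAN8-high replicate 2 stayed in that fit, so the count does not address the part of macrophage RNA.

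**Figure D4:**
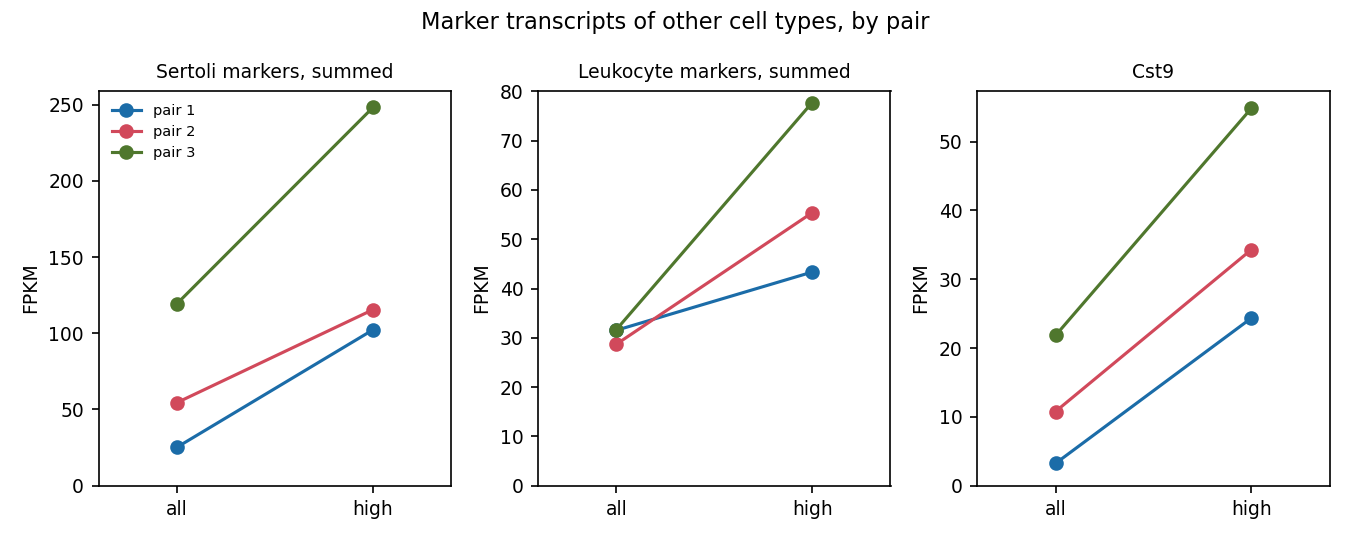
Summed FPKM of Sertoli and leukocyte markers and FPKM of Cst9 in all ID4-EGFP+ cells (all) and the TSPAN8-high fraction (high), 1 line per pair, y axes from 0. Every line rises, and the Sertoli sum in all ID4-EGFP+ spans 25.2 to 119 FPKM.

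Many genes that fell had levels that ran in parallel over the 6 libraries. Omd, for an extracellular proteoglycan of bone, was the most abundant gene among the falls named, at 1220, 1020 and 1458 FPKM in all ID4-EGFP+ and at 379, 472 and 710 FPKM in TSPAN8-high (-1.28, SE 0.12, adjusted p = 6.14e-06). With it went genes known from other cell types: Cxcr2, for a chemokine receptor of neutrophils, Tyr, for the pigment enzyme tyrosinase, Chrna1, for a subunit of the muscle acetylcholine receptor, and Nanog, for a factor of pluripotent cells. Cxcr2 stood at 59.0, 57.8 and 78.0 FPKM and at 23.3, 25.8 and 36.4 FPKM, and Tyr at 21.5, 21.4 and 26.1 FPKM and at 7.40, 9.87 and 13.8 FPKM. Both showed the order of Omd among the libraries, at a fraction of its level.

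The profile was taken as the 6 log2(FPKM + 0.1) values of a gene less their mean, and a gene was counted as like Omd where its root mean square distance was under 0.15. This limit was set after the values were seen, and it took 45 genes. The profile holds the difference between the groups, so the direction and size of its members' falls (median -1.13) follow from the choice. As a description, 37 of the 64 falls of at least 2-fold and 17 of the 38 genes that fell in all 3 fits were members. Relative to each gene's own mean in all ID4-EGFP+, the set's medians were 92.3%, 87.9% and 120% in those libraries and 33.3%, 41.7% and 61.0% in TSPAN8-high. In TSPAN8-low they were 66.4%, 112% and 104%, so replicate 1 of that fraction was low too. Cited1 in contrast stood above its whole-population mean in each TSPAN8-low library. Pola2, Mfsd4 and Ctcfl lay just inside the limit (0.1466, 0.1466 and 0.1496), and Phkg1, Ttf1 and Med16 just outside (0.156, 0.156 and 0.157).

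**Figure D5:**
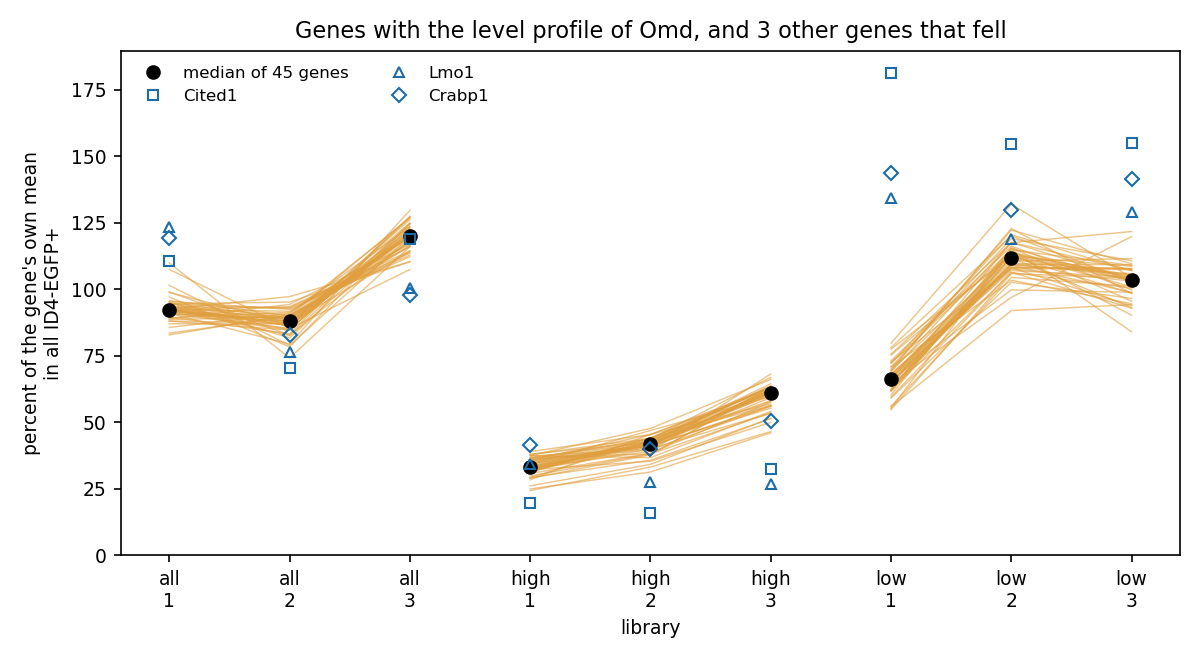
Level of each of the 45 genes like Omd (orange lines) as a percent of its own mean in all ID4-EGFP+, in the 9 libraries, with their median (black) and Cited1, Lmo1 and Crabp1 for comparison. The orange lines were chosen to lie close together in the first 6 libraries, with medians of 33.3% to 61.0% in TSPAN8-high and 66.4% in TSPAN8-low replicate 1. Cited1, Lmo1 and Crabp1 lie above 100% in all 3 TSPAN8-low libraries, which does not hold for every other fall outside the set.

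Many transcripts of this set share a repeat sequence, which the rule for the set did not use, and 4 copies are shown so that they can be compared. In GENCODE M21, 41 of the 45 genes had annotated transcripts, and in 30 of them (73.2%) some transcript held, on either strand, an 18-base word of the B2 element, a short interspersed repeat of rodents that is present in the genome in many copies. The word was found in 610 of 10207 other tested genes (5.98%). It was chosen from the sequences of these genes, so the contrast is a description. The lines that follow give 30 bases from 1 base before the word, in its orientation and with the word in capitals, for 3 genes known from other cell types and for Omd.
Cxcr2: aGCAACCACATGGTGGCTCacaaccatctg
Tyr: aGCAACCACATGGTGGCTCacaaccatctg
Nanog: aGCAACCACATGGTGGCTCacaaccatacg
Omd: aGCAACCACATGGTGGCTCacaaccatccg
In Cxcr2 the stretch lies at bases 1752 to 1781 of a transcript of 3046 bases, in the 3′ UTR and on the sense strand. In Tyr (bases 2746 to 2775 of 6042) and Nanog (1291 to 1320 of 2211) it lies in the 3′ UTR on the opposite strand, so the transcript holds the reverse complement. In Omd it is in the 5′ UTR, again reversed. Of the 30 genes' stretches, 25 were in a 3′ UTR, 1 in a 5′ UTR and 4 in transcripts with no annotated coding part, with 18 sense and 12 antisense.

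Most genes with the word were not in the profile. Of 640 tested genes that held it, 64 fell, 18 rose and the median was -0.02. The word was in 14.4% of annotated genes that fell, 4.04% of those that rose and 5.96% of those not called. The 64 falls include the 30 members of the set that held the word. It was chosen from the sequences of the set, so this contrast follows in part from the choice. Some members lacked it, Ctcfl among them, a germline relative of the insulator protein CTCF that fell by 1.49. Leaving out all genes that held the word, 438 genes rose and 401 fell, and 20 rose and 34 fell by at least 2-fold. FPKM counts reads placed on a gene, and whether reads from other copies of the repeat entered these values was not tested.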

How the data were processed

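RNA was measured in sorted mouse spermatogonia with SMART-Seq v4 cDNA and Nextera XT libraries, per the labels' protocols; the kit does not mark strand. The authors deposited Cufflinks FPKM values, which were tested, and a table of normalized signal, used only as an alternative; no source used here names its normalization method. Values are per library, without pooling. The submitters' processing notes name the build mm9 and, with no order, Cufflinks, Bowtie2 2.2.3.0, TopHat2 2.0.12 and FastQC. Columns were matched to samples by population letters and number. Of 23813 entries, 768 with a symbol on more than 1 entry were left out. Genes that reached 1 FPKM in 3 or more of the 6 libraries entered a two-sided limma 3.58.1 fit in R 4.3.3 (eBayes, trend) to log2(FPKM + 1), with the replicate number as a block and Benjamini-Hochberg adjustment over all tested genes. The pairing follows the replicate number, and the labels do not say what same-numbered libraries share. Deviations from the group mean correlated at 0.501, 0.287 and 0.459 between same-numbered libraries and at -0.399 to -0.0621 between others. Deviations cancel within each group, so positive values for same-numbered libraries push the others down. The negative values are therefore no separate evidence for the pairing. Named genes were Tspan8 and Id4; the 15 largest rises and falls among calls whose groups did not overlap and whose pairs shared a sign; 5 genes per direction with a mean of at least 100 FPKM; and the 5 members of a list that had the lowest p. Not every gene that this rule takes is described, and some results are not reported here. Further genes were chosen after their values were seen. The comparison, the 36 lists (534 genes) and the markers were chosen with earlier results of these data known. On simulated data of this design (10930 genes) the fit recovered 60% of changes of 0.5 and 100% of changes of 1 (log2). Sequences are from GENCODE M21, a later build than mm9, so no genome coordinates are given. Python 3.11.15, pandas 2.3.3 and matplotlib 3.10.9 were used for sequences and plots.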

Additional observations from a re-analysis of the deposited data

How the results depend on the processing

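The count of changed genes depended on the block, on the filter on low values and on replicate 1. Against 946 calls, the fit with no replicate block gave 52, all 9 libraries in one fit 362, and no filter on low values 0 (by limma, 2819 at an unadjusted p under 0.05, smallest adjusted p 0.142). Leaving out 1 pair gave 293 to 1452. For calls of at least 2-fold, 85 became 34 with no replicate block, 172 with a pseudocount of 0.1, 0 with no filter and 54 without genes that hold the B2 word. For calls on the lists, 75 became 10 with no replicate block, 34 with 9 libraries, 0 with no filter and 32 to 91 when 1 pair was left out. With no filter Tspan8 was at 1.09 (adjusted p = 0.184) and Id4 at 0.90 (adjusted p = 0.173); under every other alternative run, both passed. No gene whose alternatives were run changed direction where it passed in the fit of the report or in that alternative; among the genes described, Upp1, not called, was at 0.02 without replicate 1 against -0.08. The fit on the authors' normalized values called 527 higher and 391 lower genes; a common median, quantile normalization, an FPKM minimum of 5, no trend with robust estimation, and leaving out small RNA genes kept the totals of these 3 counts within 1.5 times, although no trend with robust estimation called 13 higher genes of at least 2-fold against 21. The last alternative and that on the B2 word were chosen after seeing the data. With 3 pairs and unknown depth, changes under about 0.5 (log2) are recovered in part.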
